A study of Mus musculus with 9 samples.

Results

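The 9 genes described here belong to the formative and primed states of pluripotency. Fgf5, Otx2, Pou3f1, Lef1, Tcf15, Zic2, Utf1, Sall2 and Sox4 were followed in mouse embryonic stem (ES) cells deprived of a single amino acid (AA). They were chosen by gene symbol, with earlier results of these data known. Each had 1 row in a table of read counts that held 20189 genes, of which 20143 were tested. The cells were wild-type E14, an established ES cell line, grown with leukemia inhibitory factor (LIF) and serum. For 3 h they received medium lacking threonine (Thr-starved) or cysteine (Cys-starved). Each condition, unstarved cells included, had 3 libraries of poly(A) RNA. The labels give the same medium with all AAs for unstarved cells. Their treatment text, however, describes media for arginine (Arg) and leucine (Leu) starvation. The starvation media described by the authors were made up with dialyzed serum, and all groups carried the same genotype. The labels do not say whether the 3 libraries of a condition came from separate cultures, so the p-values measure the spread between these libraries only.

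Mouse ES cells in serum and LIF hover around the naive state, which corresponds to the epiblast before implantation and is held by factors such as Nanog, Klf4 and Esrrb. On leaving it they pass through a formative state, in which Otx2 and Pou3f1 act on enhancers and genes such as Fgf5 switch on, and then reach the primed state of the epiblast after implantation. Cultures in serum are mixed, and single cells of such cultures carry transcripts of both programs. In these bulk libraries, fewer cells that express a gene and less RNA of it per cell cannot be told apart.

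Thr starvation moved the group apart. Fgf5, Tcf15, Lef1, Pou3f1 and Utf1 fell to between 7.92% and 30.9% of their unstarved level, while Zic2 and Otx2 rose to 224% and 166%. Sall2 and Sox4 changed by 0.18 and -0.11 on the log2 scale. Cys starvation lowered 5 of the 9 genes, by at most 0.95 on the log2 scale, and raised none, where 18.8% of all tested genes were called lower.

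The total count ranged from 48763102 to 74962733 per library, and levels are given as CPM, the count per 1000000 counts of a library after TMM scaling. A gene was called changed at an adjusted p of at most 0.05 in the quasi-likelihood test of edgeR, with Benjamini-Hochberg adjustment over all 20143 genes. The ES cell markers Pou5f1, Sox2, Nanog, Sall4, Zfp42, Esrrb and Dppa5a together came to between 3588 and 4025 CPM in every library. With Thr, Sox2, Esrrb, Sall4 and Zfp42 were called higher, at 0.44, 0.43, 0.37 and 0.12 on the log2 scale. Nanog, Pou5f1 and Dppa5a were called lower, at -0.42, -0.17 and -0.12. The summed level of 5 primitive endoderm markers ran from 5.79 to 6.63 CPM in unstarved, from 8.25 to 9.61 CPM in Cys-starved and from 5.41 to 6.10 CPM in Thr-starved libraries. With Thr this sum joined opposite changes. Sox7 was called lower, at -1.69 on the log2 scale, Sox17 and Gata4 higher, at 1.20 and 0.36, and Gata6 and Pdgfra were not called. The sum of 3 trophoblast markers ran from 1.52 to 2.08 CPM in unstarved, from 1.75 to 1.84 CPM in Cys-starved and from 1.06 to 1.38 CPM in Thr-starved libraries. That of 3 fibroblast markers ran from 9.96 to 10.7, from 9.51 to 12.6 and from 8.76 to 9.53 CPM in the same order. The sum of 4 primitive streak and mesoderm markers ran from 6.07 to 7.69 CPM in unstarved, from 5.40 to 6.06 CPM in Cys-starved and from 2.83 to 2.96 CPM in Thr-starved libraries. Of the neural progenitor markers, Sox1 averaged 8.37 CPM in unstarved, 12.0 CPM in Cys-starved and 15.4 CPM in Thr-starved cells, and Pax6 averaged 7.53, 9.34 and 8.24 CPM in the same order. The part of these other cell types in the results was not tested.

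The start sites of 4 genes are shown, because Fgf5, Utf1 and Lef1 fell with Thr and Otx2 rose. RefSeq promoter sequences on GRCm38.p6 matched 6 of the 9 genes, with 13 start sites among them, and the stretches printed lie before a start site and outside every exon of the GENCODE annotation. Capitals mark the motifs searched on both strands, namely TATAAA (the TATA box), CTTTGA (the core bound by Lef1 and its relatives), CACGTG (the E-box of Myc and its relatives), GGGCGG (the GC box) and CCAAT. The Fgf5 stretch is chr5:98253934-98254183 on the plus strand, next to the gene's first annotated base, and the Utf1 stretch is chr7:139943606-139943788 on the plus strand. The Lef1 stretch, chr3:131156044-131156293 on the plus strand, and the Otx2 stretch, chr14:48667645-48667894 on the minus strand, lie inside their genes, each before a start site within the gene.
Fgf5: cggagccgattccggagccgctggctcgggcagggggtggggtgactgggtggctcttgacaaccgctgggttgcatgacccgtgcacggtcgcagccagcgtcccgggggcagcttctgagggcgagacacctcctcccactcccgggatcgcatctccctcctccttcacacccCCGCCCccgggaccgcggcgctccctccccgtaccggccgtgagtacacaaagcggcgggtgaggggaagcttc
Utf1: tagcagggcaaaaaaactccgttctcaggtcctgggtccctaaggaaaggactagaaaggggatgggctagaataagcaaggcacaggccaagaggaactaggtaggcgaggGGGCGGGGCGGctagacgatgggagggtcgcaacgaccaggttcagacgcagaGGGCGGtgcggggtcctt
Lef1: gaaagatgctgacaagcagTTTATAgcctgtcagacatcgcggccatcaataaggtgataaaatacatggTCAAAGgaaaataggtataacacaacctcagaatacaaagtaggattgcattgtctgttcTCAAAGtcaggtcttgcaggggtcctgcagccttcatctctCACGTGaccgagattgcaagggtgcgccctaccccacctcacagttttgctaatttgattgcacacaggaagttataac
Otx2: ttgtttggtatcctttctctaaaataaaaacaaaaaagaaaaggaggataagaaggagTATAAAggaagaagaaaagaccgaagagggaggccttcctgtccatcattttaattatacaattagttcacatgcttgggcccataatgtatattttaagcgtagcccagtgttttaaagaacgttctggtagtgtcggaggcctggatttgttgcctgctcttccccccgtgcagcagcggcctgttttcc

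In the full windows of 250 bases before each start, GC content was 70.8% for Fgf5 and 61.6% for Utf1, against a median of 52.4% over 32851 mouse promoter windows. The Utf1 window held 4 GC boxes, 2 of them overlapping and 1 of them past the printed stretch, and the Fgf5 window held 1, a motif found in 32.7% of all windows. Of 4 Lef1 windows, the printed one held 2 matches to the core bound by Lef1 itself, found in 13.8% of all windows, together with 1 E-box, found in 6.02%, and 1 TATA box, found in 12.4%. The other 3 Lef1 windows, 2 of them near the gene's annotated start, held none of these motifs and 1 GC box each. Of 4 Otx2 windows, the printed one, with a GC content of 42.0%, held 1 TATA box and none of the other motifs. The other 3 held no TATA box, and 1 of them held CCAAT, which was in 33.8% of all windows and in none of the 4 windows printed. A match is a description of the letters and does not show that a factor was bound.

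**Figure D1:**
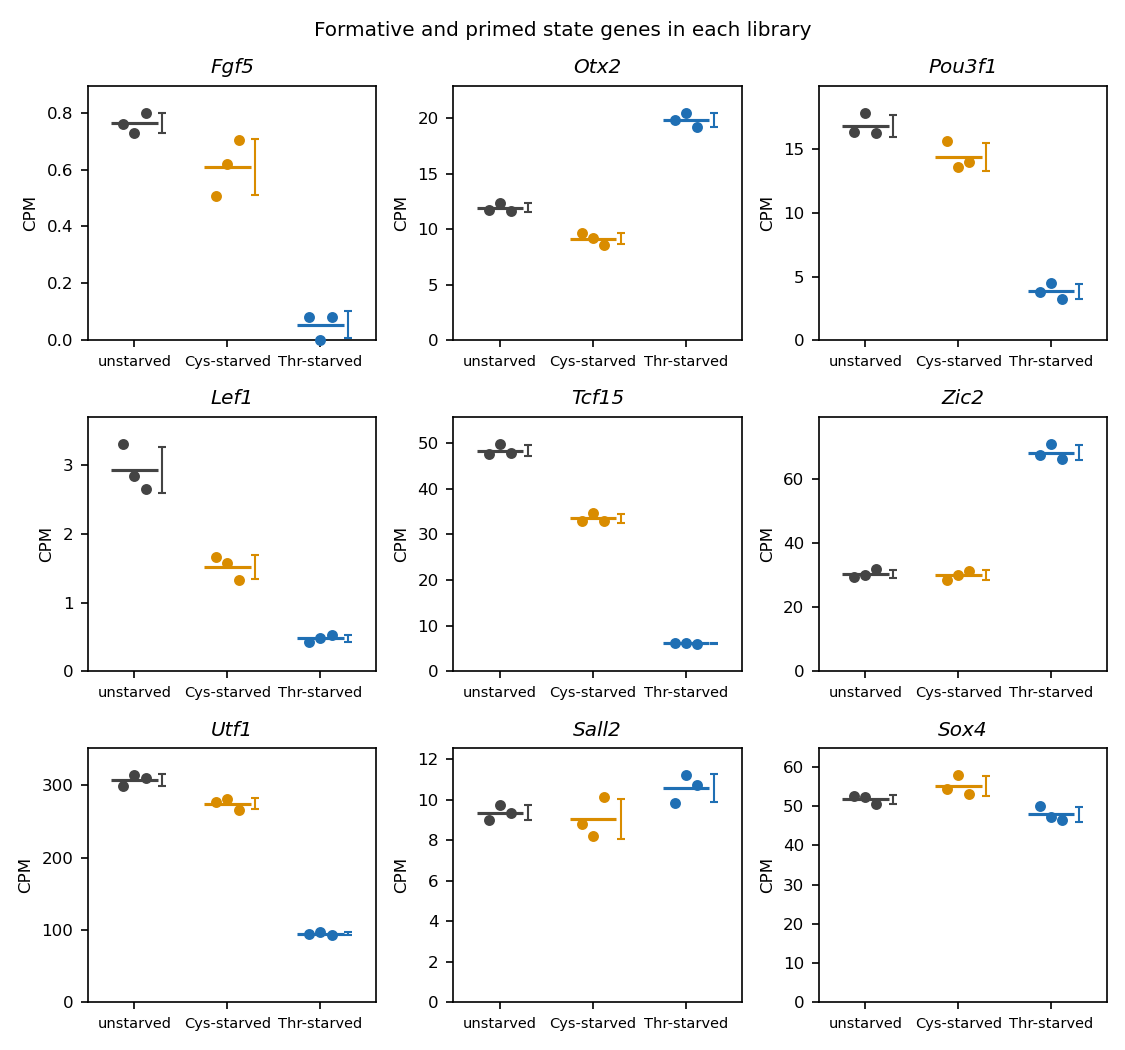
Level of each gene in CPM (linear axis from 0) in the 3 libraries of each condition. Points are libraries, horizontal lines are means and vertical bars are 1 SD. The Thr-starved points of Fgf5, Pou3f1, Lef1, Tcf15 and Utf1 lie far below the other groups and those of Otx2 and Zic2 lie above them.

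Levels of different genes were ranked only after division by the exonic length, in CPM per kb. Utf1 was the highest of the 9 in unstarved cells, at 251 ± 6.5 CPM per kb (SD, n = 3, as for all levels), and exceeded 97.98% of the tested genes with an annotated length. Tcf15 followed at 49.4 ± 1.2 CPM per kb. Sox4 at 10.8 ± 0.24 and Zic2 at 10.6 ± 0.43 CPM per kb had overlapping libraries, so their order is not resolved. Pou3f1 at 4.37, Otx2 at 2.83 and Sall2 at 1.72 CPM per kb were intermediate. Lef1 at 0.334 ± 0.038 and Fgf5 at 0.305 ± 0.014 CPM per kb were the lowest and their libraries overlapped. The exonic length joins all annotated exons of a gene. It was 8788 bases for Lef1, 4221 for Otx2 and 2880 for Zic2, against 3656, 2592 and 2440 in their longest transcripts. The order of Otx2 and Pou3f1 and of Zic2 and Sox4 therefore depends on the length used. The longest transcript would place Lef1 further above Fgf5, whose length is 2501 bases by either measure. In Thr-starved cells Zic2, at 23.7 ± 0.82 CPM per kb, stood above Tcf15, at 6.30 ± 0.088, the reverse of their order in unstarved cells. The summed level of the 9 genes, not divided by length, fell from 479.9 ± 10.2 CPM in unstarved to 252.3 ± 6.2 CPM in Thr-starved cells. Utf1 made up 64.1% of the first sum and 37.7% of the second. These shares would differ in CPM per kb.

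**Figure D2:**
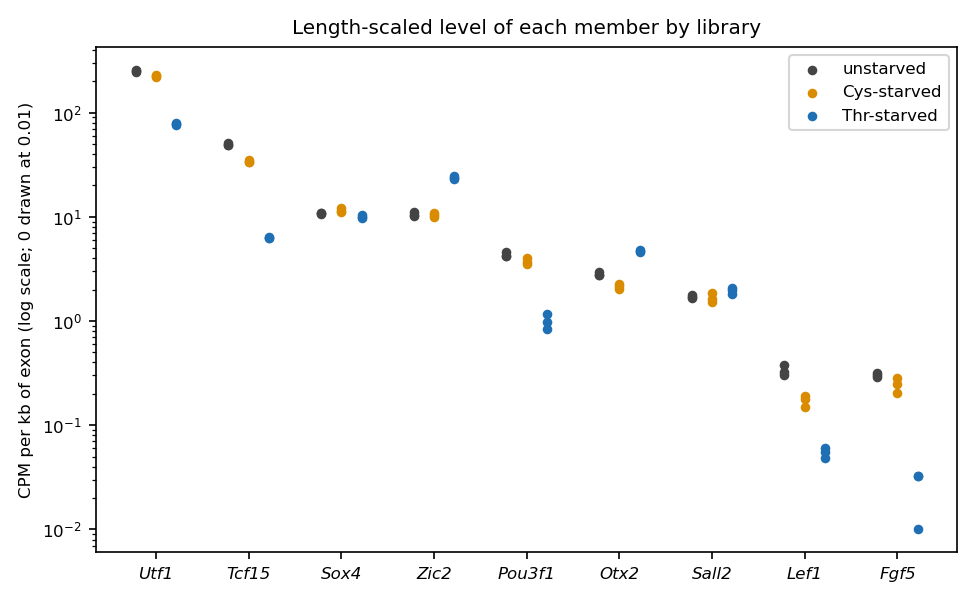
Level of each gene divided by its exonic length (CPM per kb, log axis) in every library, with genes ordered by their unstarved mean. The Fgf5 library with no reads is drawn at 0.01. Utf1 is the highest gene in every condition, and Zic2 lies above Tcf15 only after Thr starvation.

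All 9 genes were called between Thr-starved and unstarved cells, against a background in which 63.0% of all tested genes were called. Their groups of libraries did not overlap in any of the 9, a pattern that 66.5% of all tested genes shared. The median absolute log2 change of the 9 genes was 1.69, against 0.39 over all tested genes. Because the 9 genes were chosen with earlier results of these data known, their comparison with all genes is descriptive only. Of the 9, 6 fell and 3 rose, where 31.9% of all genes were called lower and 31.1% higher. A fall of at least 1 on the log2 scale was called for 5 of the 9 genes and for 7.46% of all genes, and such a rise for 1 of the 9 and for 5.79% of all genes. The median log2 change of the list was -1.69, and that of all tested genes was -0.02. Among the members, the log2 changes ran from -3.66 to 1.16.

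**Figure D3:**
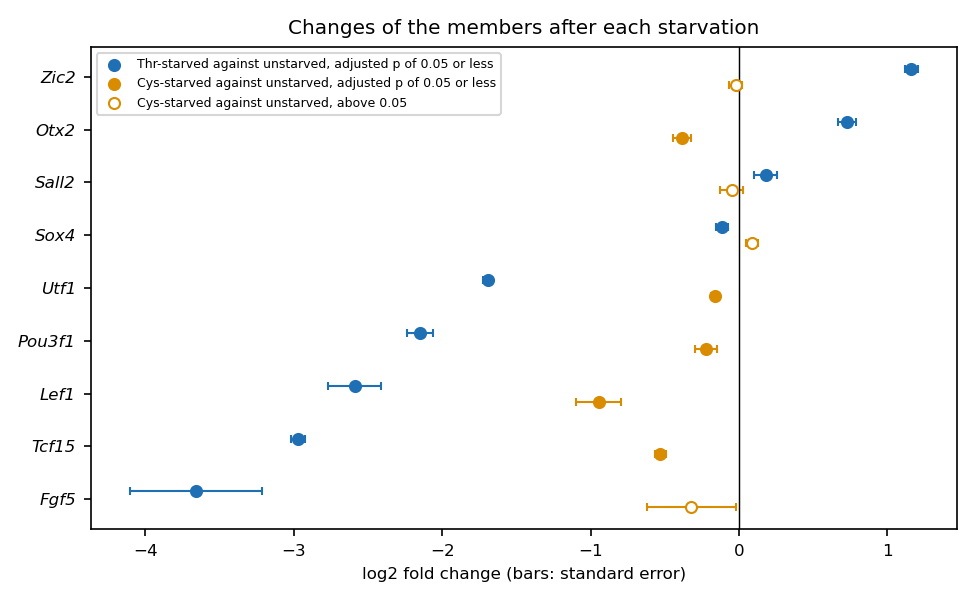
Log2 fold change of each gene in Thr-starved (blue) and Cys-starved (orange) against unstarved cells, with bars of 1 standard error and open points for adjusted p above 0.05. Thr values range from -3.66 for Fgf5 to 1.16 for Zic2, while Cys values stay between -0.95 and 0.09. Both sets share the same 3 unstarved libraries.

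Fgf5 encodes a secreted fibroblast growth factor and is a widely used transcript marker of the epiblast after implantation. The gene lies at chr5:98254184-98277030 on the plus strand of GRCm38 and has 3 exons. Its counts were 46, 44 and 43 in unstarved, 32, 40 and 42 in Cys-starved and 4, 0 and 6 in Thr-starved libraries, which is 0.728 to 0.798 CPM in unstarved libraries and at most 0.0818 CPM in Thr-starved libraries. Each Thr-starved library was below every other library, and 1 of them held no read. In that library 3 counts correspond to 0.0629 CPM, which gives a scale for its count of 0 and not an upper limit. Because both ends of a fragment appear to have been counted, counts were halved for a counting interval, which gave 5 fragments against 66. The Thr-starved level was 0.0779 of the unstarved level, with an exact 95% interval from 0.0245 to 0.191 that covers counting error only. The fitted log2 change, which depends on the prior count at such levels, was -3.66 ± 0.45 (SE), with an adjusted p of 1.85e-07.

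Cys starvation left Fgf5 at 0.508, 0.618 and 0.704 CPM, all below the unstarved libraries. This difference of -0.32 ± 0.30 (SE) on the log2 scale did not pass the test, with an adjusted p of 0.45, and the counting interval of the ratio ran from 0.555 to 1.17, so a moderate fall was not detectable at this depth. Thr-starved cells were also below Cys-starved cells, by -3.34 ± 0.46 on the log2 scale, with an adjusted p of 1.07e-06.

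Tcf15, a basic helix-loop-helix factor that primes pluripotent cells for differentiation and is held back by Id proteins, lies at chr2:152143561-152149097 on the plus strand. Its level was 47.6, 49.8 and 47.8 CPM in unstarved, 33.1, 34.6 and 32.9 CPM in Cys-starved and 6.26, 6.16 and 6.09 CPM in Thr-starved libraries. The 3 groups were fully separate, in the order unstarved, Cys-starved, Thr-starved, and all neighbours in that order were called. The fall with Thr was -2.97 ± 0.048 (SE) on the log2 scale, 7.85-fold, with an adjusted p of 1.34e-22. Of the 11410 genes that averaged 5 CPM or more, 2 had a lower log2 change with Thr. The fall with Cys was -0.53 ± 0.039, with an adjusted p of 3.56e-10, and Thr-starved were below Cys-starved cells by -2.44 ± 0.050 on the log2 scale, with an adjusted p of 9.14e-21.

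Pou3f1, also known as Oct6, is a single-exon gene at chr4:124656807-124660655 on the plus strand and encodes a POU homeodomain factor that works with Otx2 on formative enhancers. It measured 16.3, 17.8 and 16.3 CPM in unstarved, 15.6, 13.6 and 14.0 CPM in Cys-starved and 3.80, 4.49 and 3.26 CPM in Thr-starved libraries. The Thr-starved libraries lay far under the others, and the Cys-starved libraries lay just under the unstarved ones. Thr lowered it by -2.15 ± 0.090 (SE) on the log2 scale, with an adjusted p of 1.96e-15. The Cys difference was -0.22 ± 0.074, with an adjusted p of 0.0219. That call was lost without Cys-starved replicate 2 or 3 or without unstarved replicate 2, at log2 changes of -0.18, -0.20 and -0.18.

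Lef1 encodes an HMG-box factor that binds DNA with β-catenin at the end of the Wnt pathway, and the gene spans chr3:131110471-131224356 on the plus strand. Its counts were low, with 143 to 200 in unstarved, 79 to 105 in Cys-starved and 21 to 39 in Thr-starved libraries. In CPM these were 3.31, 2.85 and 2.65 for unstarved, 1.67, 1.58 and 1.32 for Cys-starved and 0.429, 0.482 and 0.532 for Thr-starved libraries. No groups overlapped. Lef1 had the largest fall of the 9 genes with Cys, -0.95 ± 0.15 (SE) on the log2 scale with an adjusted p of 2.37e-05. With Thr it fell by -2.59 ± 0.18, with an adjusted p of 1.67e-11, and the Thr-starved level was below the Cys-starved level by -1.64 ± 0.19, with an adjusted p of 1.15e-07.

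Utf1, a chromatin-bound protein of pluripotent cells, lies at chr7:139943789-139945112 on the plus strand. It measured 299, 314 and 310 CPM in unstarved, 277, 282 and 266 CPM in Cys-starved and 94.9, 97.1 and 93.2 CPM in Thr-starved libraries. All 3 groups were separate, and those with Thr were below the other 2 by a wide margin. With Thr, Utf1 fell by -1.69 ± 0.028 (SE) on the log2 scale, 3.23-fold, with an adjusted p of 1.35e-22. The Cys change was small but called, -0.16 ± 0.026, with an adjusted p of 3.64e-05.

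Zic2, a zinc finger factor that occupies enhancers in ES cells, lies at chr14:122475435-122479852 on the plus strand. It measured 29.5, 30.1 and 31.9 CPM in unstarved, 28.5, 30.2 and 31.5 CPM in Cys-starved and 67.7, 71.0 and 66.3 CPM in Thr-starved libraries. The unstarved and Cys-starved libraries were interleaved and every Thr-starved library was above them. The rise with Thr was 1.16 ± 0.042 (SE) on the log2 scale, 2.24-fold, with an adjusted p of 1.44e-16. The Cys difference was -0.02 ± 0.044 on the log2 scale, with an adjusted p of 0.75, and took either sign when single libraries were left out.

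Otx2, the homeobox factor that drives exit from the naive state, lies at chr14:48657677-48673819 on the minus strand. It measured 11.7, 12.4 and 11.7 CPM in unstarved, 9.65, 9.18 and 8.62 CPM in Cys-starved and 19.9, 20.4 and 19.2 CPM in Thr-starved libraries. Cys-starved libraries were the lowest and Thr-starved libraries the highest, with no overlap. Otx2 rose with Thr by 0.73 ± 0.058 (SE) on the log2 scale, with an adjusted p of 1.72e-10, and fell with Cys by -0.38 ± 0.062, with an adjusted p of 3.23e-05. It was the only one of the 9 genes called in opposite directions by the 2 starvations, and the direct comparison of Thr-starved with Cys-starved cells gave 1.11 ± 0.059, with an adjusted p of 1.80e-13.

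Sall2 and Sox4 changed least. Sall2, a zinc finger factor of the Spalt family at chr14:52311172-52328762 on the minus strand, measured 8.98, 9.73 and 9.33 CPM in unstarved, 8.79, 8.22 and 10.1 CPM in Cys-starved and 9.84, 11.2 and 10.7 CPM in Thr-starved libraries. The lowest Thr-starved library exceeded the highest unstarved one by a narrow margin, and the Cys-starved libraries overlapped both groups. The Thr difference was 0.18 ± 0.078 (SE) on the log2 scale with an adjusted p of 0.0496. That call was lost with DESeq2, at a log2 change of 0.19, with the replicate number as a block, at 0.18, and without Cys-starved replicate 1, Thr-starved replicate 2 or 3, or unstarved replicate 1 or 3, at log2 changes from 0.14 to 0.18. Thr-starved exceeded Cys-starved cells by 0.23 ± 0.078, with an adjusted p of 0.0141, a call lost without Cys-starved replicate 2 at 0.16 or Thr-starved replicate 2 at 0.19.

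Sox4, an HMG-box factor of the SoxC group encoded by a single exon at chr13:28948919-28953713 on the minus strand, measured 52.5, 52.3 and 50.5 CPM in unstarved, 54.3, 57.9 and 53.0 CPM in Cys-starved and 50.1, 47.3 and 46.4 CPM in Thr-starved libraries. Thr-starved libraries were the lowest and Cys-starved libraries the highest. Its Thr difference was -0.11 ± 0.039 (SE) on the log2 scale with an adjusted p of 0.0152. The call was lost with offsets for GC content and length, at -0.03, and without Thr-starved replicate 3, at -0.09, unstarved replicate 1 or unstarved replicate 2, both at -0.10. Cys-starved cells did not differ from unstarved cells by the test, at 0.09 ± 0.038 with an adjusted p of 0.0804, and the difference passed it without Cys-starved replicate 3, at 0.11. Thr-starved were below Cys-starved cells by -0.20 ± 0.039, with an adjusted p of 9.63e-05. The annotation places a noncoding gene, Gm26735, on the opposite strand across the Sox4 exon, and strand use in counting is not given in the sources used here, so how reads of this stretch were assigned is not known.

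With Cys, 5 of the 9 genes were called, against 36.3% of all tested genes. All 5 were lower, where 18.8% of all genes were called lower and 17.5% higher. Libraries did not overlap for 7 of the 9 genes, against 46.4% of all genes. The median log2 change of the list was -0.22, with 0.01 over all genes, and none of the 9 passed 1 on the log2 scale. In the direct comparison of the starvations, all 9 were called against 62.0% of all genes, with 3 higher and 6 lower in Thr-starved cells against 30.4% and 31.6% of all genes. Libraries did not overlap for 8 of the 9, against 65.8%, and Sall2 was the exception. The Thr and Cys comparisons share their unstarved libraries.

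A wider list of formative and primed genes also held changes in both directions with Thr. Of its 16 genes, 6 were called higher and 9 lower, against 31.1% and 31.9% of all genes, with a median log2 change of -0.16. Foxd3, a forkhead factor of the epiblast, fell by -2.34 ± 0.059 (SE) on the log2 scale, from 34.1 ± 1.3 to 6.76 ± 0.15 CPM. Grhl2, which opens epithelial enhancers in the formative state, fell by -1.57 ± 0.070, and Dnmt3a, a de novo DNA methyltransferase, by -0.90 ± 0.033. Of its genes that averaged 5 CPM or more, the largest rises were Zic5 at 1.51 ± 0.041 and the RNA-binding proteins Lin28a at 0.59 ± 0.023 and Lin28b at 0.46 ± 0.035. With Cys, 12 of the 16 were called lower and none higher, against 18.8% and 17.5% of all genes, with a median of -0.29. At 5 CPM or more, the largest falls were Foxd3 at -0.77 ± 0.050, Tdgf1, a Nodal co-receptor, at -0.50 ± 0.022 and Dnmt3b, the other de novo methyltransferase, at -0.38 ± 0.024. In the direct comparison 7 were higher and 7 lower in Thr-starved cells, against 30.4% and 31.6% of all genes.

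Naive pluripotency genes did not move in 1 direction either. With Thr, 9 of 16 were called higher and 7 lower, against 31.1% and 31.9% of all genes, with a median log2 change of 0.14. Tbx3, a T-box factor, rose by 1.51 ± 0.031 (SE) on the log2 scale, Stat3, the transducer of LIF, by 1.38 ± 0.029 and Klf5, a Krüppel-like factor, by 1.09 ± 0.027. Gbx2, a homeobox factor downstream of LIF, fell by -1.80 ± 0.043, Prdm14 by -0.67 ± 0.062 and Fgf4, the main autocrine FGF of ES cells, by -0.54 ± 0.027. With Cys, 5 were called higher and 8 lower, against 17.5% and 18.8% of all genes, with a median of -0.05. The nuclear receptors Nr0b1 and Esrrb rose by 0.32 ± 0.029 and 0.26 ± 0.020 on the log2 scale and Klf5 by 0.24 ± 0.027, and Gbx2, Dppa3 and Fgf4 fell by -0.73 ± 0.040, -0.39 ± 0.041 and -0.38 ± 0.026. In the direct comparison, 9 were higher and 5 lower in Thr-starved cells, against 30.4% and 31.6% of all genes.

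**Figure D4:**
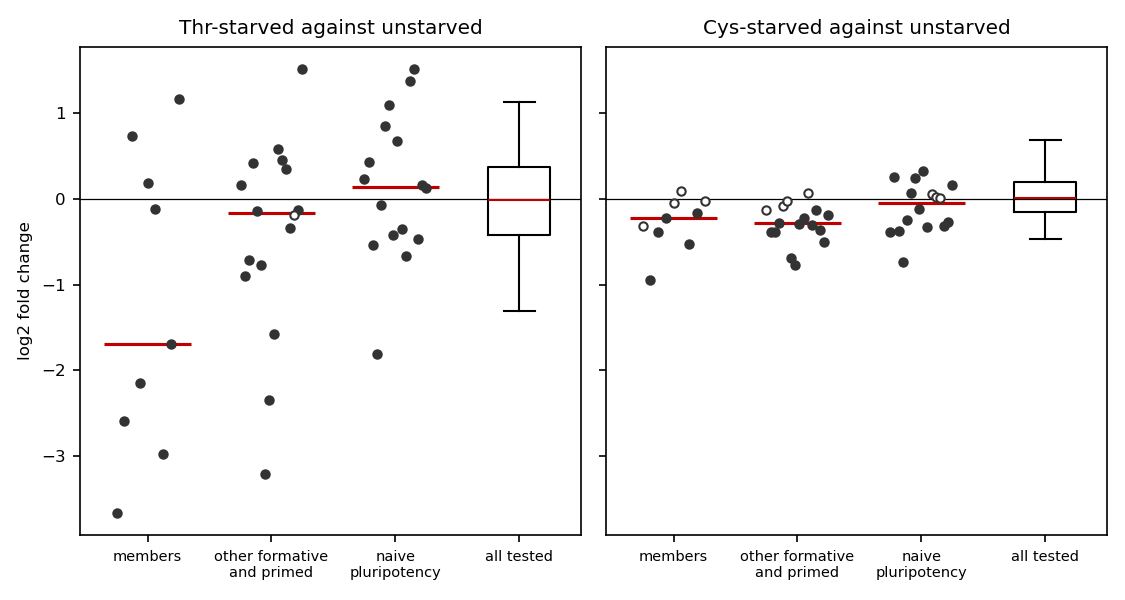
Log2 fold change of the 9 genes, of 16 other formative and primed genes and of 16 naive pluripotency genes, with Thr (left) and Cys (right) against unstarved cells. Points are genes, filled at an adjusted p of at most 0.05, red lines are medians, and the box of all tested genes spans the quartiles with whiskers to the 5th and 95th percentiles. The median of the 9 genes lies at -1.69 with Thr and at -0.22 with Cys.

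Relatives of the 9 genes by family were taken as a list of 21, of which 20 were tested and Zic4 was not analysed here. With Thr, 6 were called higher and 8 lower, against 31.1% and 31.9% of all genes, with a median log2 change of -0.28. With Cys, 2 were called higher and 7 lower, against 17.5% and 18.8% of all genes, with a median of -0.10. Of the Zic relatives, Zic5 rose with Thr by 1.51 ± 0.041 (SE) on the log2 scale. Sall1 and Sall4, Spalt relatives of Sall2, rose by 0.43 ± 0.026 and 0.37 ± 0.034. Of 5 FGF ligands in the list, Fgf8 was not called with Thr and the other 4 fell, Fgf15 by -3.21 ± 0.18 and Fgf3 by -1.93 ± 0.29, both under 5 CPM, Fgf17 by -2.05 ± 0.061 and Fgf4 as given above. Tcf7, a relative of Lef1, fell by -0.99 ± 0.044 with Thr, whereas Tcf7l1, the repressor of the same family, rose by 0.30 ± 0.030 with Thr and 0.13 ± 0.030 with Cys. Sox12, of the SoxC group of Sox4, fell by -0.97 ± 0.040 with Thr and -0.16 ± 0.038 with Cys. With Cys, Sall1 rose by 0.09 ± 0.026 and Zic5 fell by -0.19 ± 0.044.

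Regulators and readouts of the 9 genes formed a list of 17. With Thr, 7 were called higher and 5 lower, against 31.1% and 31.9% of all genes, with a median log2 change of 0.10. With Cys, 4 were called higher and 8 lower, against 17.5% and 18.8% of all genes, with a median of -0.10. Id1, an inhibitor of helix-loop-helix factors, fell with Thr by -1.48 ± 0.060 (SE) and with Cys by -0.46 ± 0.055, in the same direction as Tcf15. Id2 rose with Thr by 0.46 ± 0.051, and Id3 rose with Cys by 0.42 ± 0.058. Tcf3, a dimer partner of Tcf15, fell with Thr by -0.39 ± 0.030, and the partners Tcf12 and Tcf4 rose with both starvations, by 0.45 ± 0.041 and 0.26 ± 0.040 with Thr and by 0.33 ± 0.041 and 0.20 ± 0.039 with Cys. Of the FGF pathway, the receptor Fgfr2 rose with Thr by 1.42 ± 0.054 and the phosphatase Dusp6 by 0.83 ± 0.029. The feedback inhibitors Spry4 and Spry2 went opposite ways with Thr, at -0.70 ± 0.026 and 0.36 ± 0.027. With Cys, the Wnt target Sp5 fell by -0.71 ± 0.096 and Spry2 by -0.30 ± 0.028.

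For the gene that rose most and the gene of at least 5 CPM that fell most with Thr, the most similar genes were sought among 11410 genes by the root mean square difference of log2 level relative to unstarved over the 6 starved libraries. Those nearest to Zic2 were Rnf169, a ubiquitin ligase, at a difference of 0.046, the gene model Gm6485 at 0.060 and Triml2 at 0.062. Rnf169 measured 38.6 ± 2.1 CPM in unstarved, 38.2 ± 1.5 CPM in Cys-starved and 84.2 ± 1.9 CPM in Thr-starved cells. Those nearest to Tcf15 were less close, namely Spn, a sialomucin of the cell surface, at 0.17 and Ceacam1, an adhesion molecule, at 0.22. Spn measured 14.0 ± 0.33, 8.93 ± 0.59 and 1.62 ± 0.31 CPM in the same order of groups.

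The 9 genes share little in structure. Sox4 and Pou3f1 have 1 exon and Utf1, Tcf15 and Sall2 have 2 in their longest transcript, while 23.5% of all tested genes have 1. GC content of the longest transcript was 65.8% for Tcf15, 63.9% for Pou3f1, 63.5% for Utf1 and 59.9% for Zic2, against a median of 49.7% over all tested genes, and 47.0% for Fgf5 and 46.1% for Lef1. With Thr, Tcf15, Pou3f1 and Utf1 fell and Zic2 rose. Of the stretches of 43 bases, the read length, in the longest transcript, none of Otx2, Tcf15, Zic2, Utf1 or Sall2 occurred in transcripts of another gene, against 1.26% of Fgf5, 2.35% of Lef1, 7.59% of Pou3f1 and 54.3% of Sox4. Those of Pou3f1 were all in Gm2164, on the opposite strand, which had 2 counts over all 9 libraries. Genes on the opposite strand also overlap exons of Lef1 and Otx2, and Gm49154 overlaps Otx2 exons on the same strand. With offsets for GC content and length, the Thr change was -2.65 for Tcf15, -1.75 for Pou3f1, -1.35 for Utf1 and 1.48 for Zic2 on the log2 scale. Without them it was -2.97, -2.15, -1.69 and 1.16 in the same order, so each value moved upward with the offsets. The part of GC content in these changes was not tested.

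Zic2, Otx2 and Sall2 all lie on chromosome 14, but far apart. Expressed genes within 100000 bases of each of the 9 genes were listed at a mean of at least 1 CPM, and those named here were singled out after their values were seen. Zic5 lies 9758 bases from Zic2 on the opposite strand and 2610035F20Rik lies 236 bases from it, also on the opposite strand. Both rose with Thr, by 1.51 and 1.13 on the log2 scale, with adjusted p of 8.80e-19 and 1.17e-08, while the farther neighbours Pcca and Clybl, also called, changed by 0.17 and 0.39. Near Tcf15, Srxn1 at 32185 bases fell by -2.30 with Thr and -0.58 with Cys, while Csnk2a1 at 77742 bases changed by -0.15 with Thr. Near Lef1, Sgms2 at 94629 bases fell by -2.76 with Thr, and Hadh, at 9063 bases, changed by -0.19. No expressed gene lay within this distance of Fgf5 or of Sox4.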

How the data were processed

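The authors mapped paired-end reads to GRCm38 with STAR 2.7.4a and counted reads per gene with HTSeq, and the raw counts were deposited for all 9 libraries. A second deposited table, of unit signal, holds the same counts divided by DESeq2 size factors, which served only as an alternative scaling. Of small counts from 1 to 20, 67.8% were even, so both ends of a fragment appear to have been counted. Genes were named from GENCODE M21, and 20171 of 20189 IDs had a symbol. Groups were read from the sample titles, since the treatment text of the labels describes Arg and Leu media. The members and gene lists were chosen with earlier results of these data known.

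Genes with at least 1 count were tested in edgeR 4.0.16 (R 4.3.3) with TMM scaling and the quasi-likelihood F test, fitted on all 3 groups and tested on simulated data first, with Benjamini-Hochberg adjustment over 20143 genes. Genes named from other lists had a mean of at least 5 CPM and were the up to 3 largest called changes in each direction with Thr and with Cys. Marker genes, neighbours, Fgf3, Fgf8 and Fgf15, and Tcf4, Tcf12 and Spry2 with Thr, stand outside this rule and were named after their values were seen. Similarity used log2(CPM + 0.5). A few genes that these rules and lists name are not reported here. Alternatives were DESeq2 1.42.0, RLE and deposited size factors, other filters, only the groups compared, a replicate block, GC and length offsets, stricter thresholds, halved counts (chosen after seeing the data) and each library left out. The smallest total, 48763102 counts, sets a level of 3 counts at 0.0629 CPM. Within groups, the chi-square of each pair of libraries was 1.98 to 2.13 per gene on counts that hold both read ends, and no pair stood apart.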

Additional observations from a re-analysis of the deposited data

Results flagged for a closer look

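Otx2 was called higher with Thr and lower with Cys starvation, and the difference between the starvations, 1.11 on the log2 scale, passed the test of edgeR. The same opposite calls, with a called difference between the starvations, occurred among the genes of the other lists and the markers in Zic5 (1.70), Fgfr2 (1.61), Lin28a (0.81), Dnmt3l (0.70), Spry2 (0.66), Nodal (0.65), Sox2 (0.63), Dppa3 (0.62), Sall4 (0.53) and Tfcp2l1 (0.44), where values are Thr-starved against Cys-starved log2 fold changes. In these genes the Thr-starved level was the higher one. Sox7, a marker of primitive endoderm, went the other way, lower with Thr and higher with Cys, at -2.20. The share of all tested genes with opposite calls is not given here, so these genes cannot be set against a background.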

How the results depend on the processing

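Under 18 alternatives each at the same threshold, 20 of the 27 log2 changes of the 9 genes kept their call and sign in every setting, among them every Thr and Thr against Cys change of Fgf5, Otx2, Pou3f1, Lef1, Tcf15, Zic2 and Utf1. With single libraries left out, the Cys difference of Zic2 ran from -0.055 (without Cys-starved replicate 3) to 0.015 (without Cys-starved replicate 1) on the log2 scale, and was also positive without unstarved replicate 3 (0.010). That of Sall2 ran from -0.14 (without Cys-starved replicate 3) to 0.016 (without Cys-starved replicate 2), and neither was called in any setting. With the replicate block, 8 of the 9 genes were called with Thr, Sall2 being lost at 0.18, with no other call changed among the 9. Deviations of same-numbered libraries of different groups had correlations from -0.24 to 0.11, and those of differently numbered libraries from -0.16 to 0.21. Such correlations cannot show whether libraries with the same number were handled together. With an adjusted p of at most 0.01, the calls of the 9 genes were 7 with Thr, 4 with Cys and 8 in the direct comparison. The share of all tested genes at 0.01 is not given here, so these counts cannot be set against a background. With an absolute log2 change of at least 1 required, calls of the 9 genes were 6 with Thr, without Otx2, Sall2 and Sox4. In the direct comparison they were 7, without Sall2 and Sox4. With Thr, 7.46% of all tested genes were called lower and 5.79% higher at this threshold. The share of all tested genes is not given here for the direct comparison, so its counts cannot be set against a background. Calls with Cys fell to 0 for the 9 genes, the other formative and primed genes and the naive genes. Their largest changes with Cys were -0.95, -0.77 and -0.73 on the log2 scale, in that order of lists. Calls of the other formative and primed genes then fell to 4 with Thr and 4 in the direct comparison, and those of naive genes to 4 and 3. Fgf5 is limited by depth, with at most 6 counts in a Thr-starved library.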
